A study of Onthophagus taurus with 96 samples.

Results

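The proteasome subunit genes of the horned beetle *Onthophagus taurus* were described across 4 pupal tissues, both sexes and 2 treatments. They were chosen by the gene names in the genome annotation with no filter on expression, although earlier results of these data were known. Of 17483 annotated genes, 30 carried the name of a core subunit, a regulatory subunit, an activator or the assembly factor gankyrin. The 30 comprise 5 α and 7 β subunits of the core, 5 ATPases and 10 non-ATPase subunits of the regulatory particle, the activators PA28γ and PA200, and gankyrin. Among others, the rule did not reach the genes for α1, α6, Rpt5, Rpn8, Rpn13 and Dss1, nor the maturation factor pomp.

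The proteasome is the protease that removes most short-lived and damaged proteins from the cytosol and nucleus. Its barrel-shaped core holds the active sites inside rings of β subunits, closed at both ends by rings of α subunits. The regulatory particle that caps the core binds ubiquitin-tagged proteins, strips the tag, unfolds the chain with a ring of ATPases and feeds it in, while the activators are other caps that open the core without ubiquitin. In flies and mammals the subunit genes are transcribed together under cap'n'collar transcription factors (cnc in *Drosophila*, Nrf1 in mammals).

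The study asked how the sex-determination transcription factor Doublesex (Dsx) shapes tissue-specific sexual dimorphism. Larvae were injected with 3 μl of buffer carrying 0.5 μg of double-stranded RNA against all known *dsx* isoforms (*dsx*RNAi) or 1 μg of a vector-derived control double-stranded RNA (control), so that the controls were also injected and the doses differ. RNA was taken within a day of pupation from brain, from the thoracic horn region, from the head horn region and from the posterior abdominal epidermis, called genitalia. There were 16 groups of 6 libraries, 96 in all, and 6 pupae of each sex and treatment gave the 4 tissues. Libraries of different tissues can therefore share an animal, the labels do not say which, and the tissues were treated as independent. RNAi lowers the mRNA without removing the gene.

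The libraries held 3615803 to 19008005 reads on genes, with a median of 8518004. The share of reads taken by the 20 most abundant genes of a library was 8.15 to 8.95% in brain and 11.9 to 21.6% in genitalia but reached 50.4% in thoracic horn and 52.7% in head horn, so levels depended on how libraries were scaled. A pair of scales is used below (FPKM, reads scaled by gene length and library size, for comparing genes, and CPM, counts scaled to a common library size with TMM factors computed over the 96 libraries, for comparing libraries). As a check of the labels, *dsx* had a median of 33.8 to 51.9 CPM in the 4 control horn groups and 7.01 to 20.4 CPM in the 4 *dsx*RNAi horn groups, and at most 0.68 CPM in any brain library. In genitalia, where single libraries ranged widely, its medians were 44.9 CPM in control females and 26.3 CPM in control males, against 20.5 and 10.8 CPM after *dsx*RNAi. All 7 neuronal and glial markers were higher, and all 8 epidermal markers lower, in brain than in the 3 epithelia in both sexes. In whole tissue, fewer cells of a type and less RNA per cell cannot be told apart.

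Most proteasome genes were abundant. Averaged over the 96 libraries, 22 of the 30 were at 40 FPKM or more, and 28 had at least 200 reads in every library. The class medians were 100.8 FPKM for the α subunits, 102.9 FPKM for the β subunits, 99.9 FPKM for the ATPases and 70.98 FPKM for the non-ATPase subunits. The highest means were those of the core subunit β3 (prosbeta3, 149.7 FPKM), the core subunit β7 (psmb4, 135.7 FPKM) and the ATPase Rpt3 (rpt3, 126.6 FPKM). The lowest were those of the α-ring subunit α7 (psma3, 3.12 FPKM), the core subunit β6 (pros26, 8.62 FPKM) and PA200 (psme4, 10.4 FPKM). FPKM divides by gene length, and 4 of the 5 members lowest in FPKM were among the 5 longest. In mean CPM, which does not, β6 was at 93.2 and PA200 at 174.0, against 110.1 for β3, the shortest member. The FPKM ranks thus depend on the lengths of the gene models. α7, with as few as 8 reads in a library, is the least precisely measured member.

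As deposited FPKM, the named parts of the machine were highest in genitalia. Of the 3 catalytic subunits, β1 (psmb6), which cuts after acidic residues, had a mean of 49.9 ± 7.70 FPKM (SD, n = 24) there and 48.1 ± 2.86 FPKM in brain, which do not differ beyond their spread, against 32.98 ± 9.50 and 29.8 ± 9.57 FPKM in thoracic and head horn. β2, which cuts after basic residues, had 149.1 ± 24.7 FPKM in genitalia, 129.3 ± 9.22 in brain, 106.5 ± 29.5 in thoracic horn and 100.1 ± 31.3 in head horn. β5, which cuts after hydrophobic residues, followed the same order with 122.9 ± 18.3, 102.1 ± 8.96, 71.4 ± 16.3 and 65.8 ± 16.2 FPKM. The ubiquitin receptor Rpn10 (pros54) had 145.8 ± 22.97 FPKM in genitalia, 97.7 ± 7.01 in brain, 78.8 ± 23.7 in thoracic horn and 76.2 ± 25.1 in head horn. The tag-removing enzyme Rpn11 departed from this order, with 83.1 ± 13.5 FPKM in genitalia and between 49.1 and 52.7 FPKM in the other 3 tissues. The 5 ATPases, which unfold the substrate, ranged from 80.5 FPKM (Rpt1) to 177.3 FPKM (Rpt3) in genitalia and from 60.1 to 132.9 FPKM for the same genes in brain. PA28γ (reg), a cap of nuclear proteasomes, ranged from 39.5 ± 9.76 FPKM in head horn to 60.03 ± 14.1 FPKM in genitalia. In each gene named here the means of the 2 horn regions lay within 1 SD of each other. The order of brain and horns given here is that of FPKM. By TMM-scaled counts all 30 members were lower in control brain than in the mean of the 3 epithelia, genitalia included, as given below.

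PA200, an activator and the longest member, had the widest range of the 30. Its highest library stood 21.6 times above its lowest in FPKM, against 10.7 times for α7, the next, 10.4 times for gankyrin and 3.80 times for Rpt3. The gene (OTAU006339) lies on scaffold 413 of the v0.5.3 assembly from base 1 to base 18815 on the plus strand, so that its model begins at the scaffold's first base. PA200 is best known from mammalian testis, where it caps proteasomes during sperm formation.

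**Figure D1:**
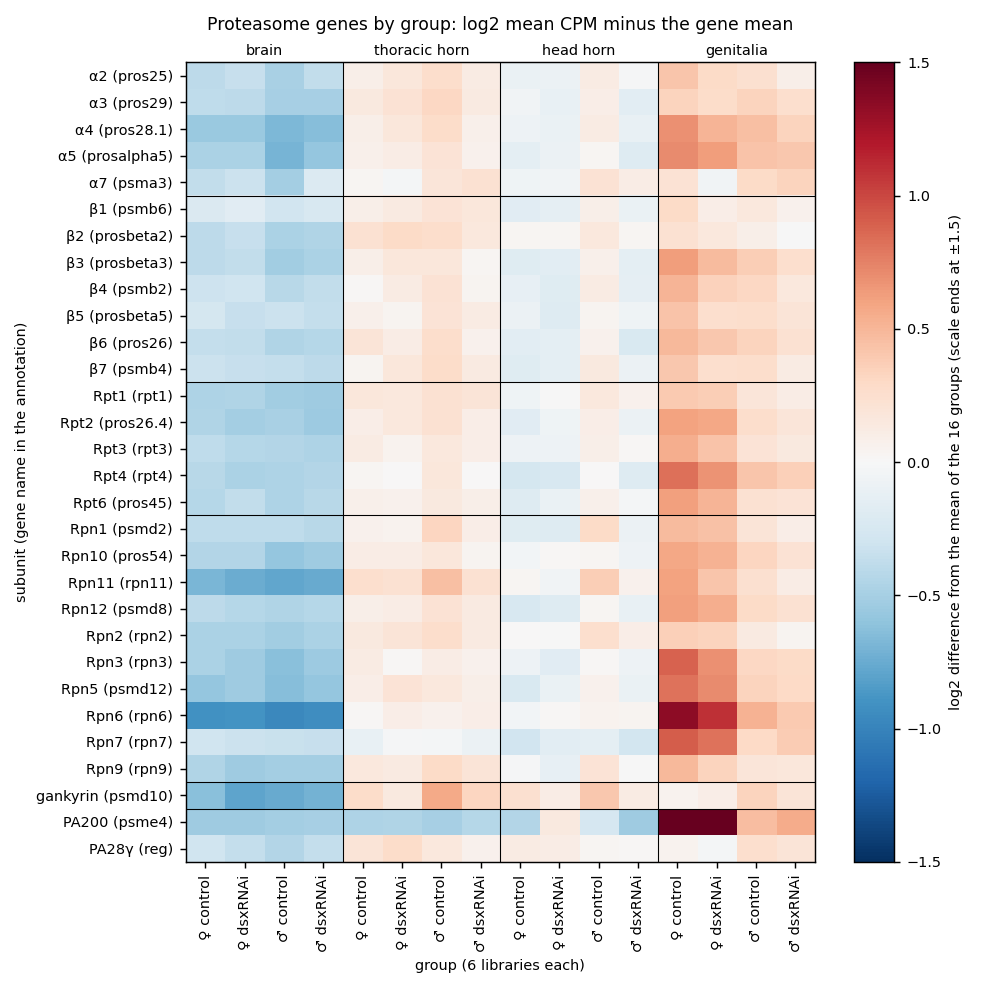
Mean level of each of the 30 proteasome genes (rows, grouped by subunit class) in each of the 16 groups of 6 libraries (columns), as the log2 of TMM-scaled CPM minus the mean over groups. Brain columns are below the mean for the 30 genes, an order that turns for the sum over the genes when FPKM is used, and the darkest cells are PA200 and Rpn6 in female genitalia, at means of 598.7 and 587.4 CPM in controls.

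Summed over the 30 genes, genitalia stood highest on both scales, but the order of brain and horns turned with the scaling. Summed FPKM was 3238 ± 405 (SD, n = 24) in genitalia, 2288 ± 114 in brain, 1814 ± 471 in thoracic horn and 1695 ± 492 in head horn. Summed TMM-scaled CPM was 6015 ± 1182 in genitalia, 4767 ± 486 in thoracic horn, 4273 ± 474 in head horn and 3159 ± 128 in brain. The brain libraries, between 2943 and 3474 CPM, lay below every horn library on that scale. In control genitalia the sum was 7098 ± 1304 CPM in females and 5333 ± 322 CPM in males (n = 6 each), whereas the summed FPKM of the same libraries was 3321 and 3425.

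**Figure D2:**
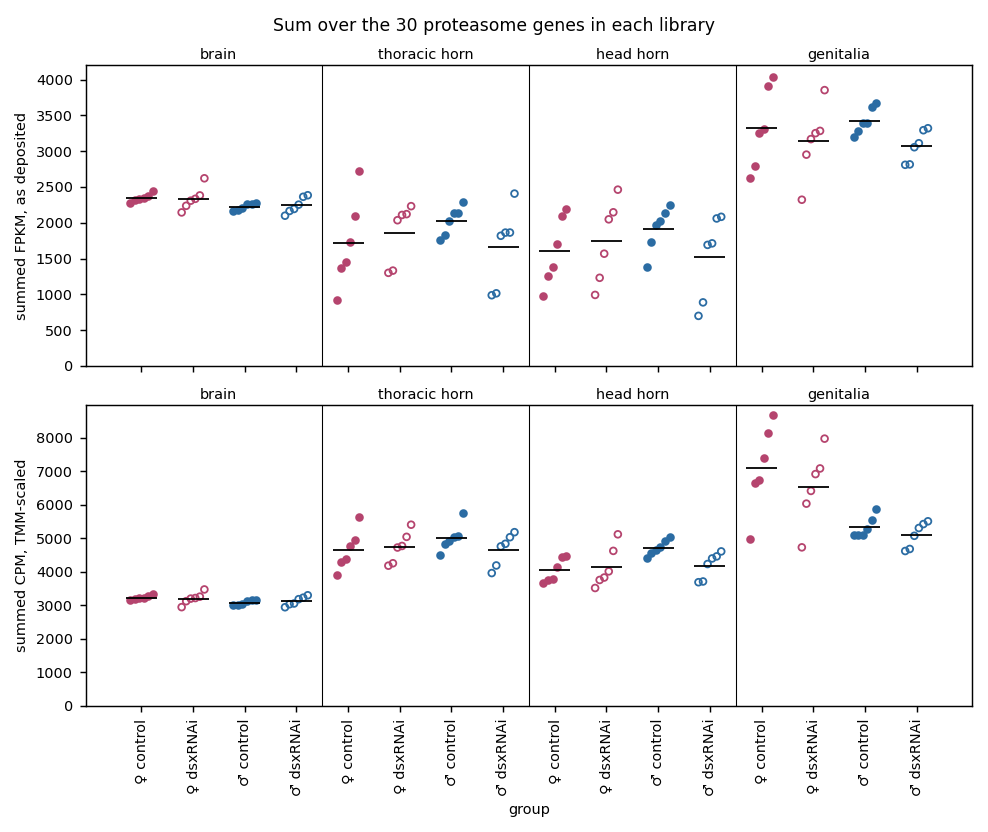
Sum over the 30 proteasome genes in each library as deposited FPKM (top) and as TMM-scaled CPM (bottom), by group, with 1 point per library and a line at the mean of the 6. Brain lies above most horn libraries in FPKM and below all of them in CPM, and genitalia stand highest on both.

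Brain was compared with the 3 epithelia in control animals with edgeR's quasi-likelihood test and Benjamini-Hochberg adjustment over all genes tested, at an adjusted p of 0.05. In females 30 of 30 members were lower in brain and in males 30 of 30 were lower. Among all genes tested, 69.4% passed in either direction and 36.3% were lower in females, and 78.9% and 39% in males. The median log2 fold change of the members was -0.62 in females and -0.65 in males, against -0.06 and 0.01 over all genes. With library totals in place of TMM factors the members' medians became 0.30 and 0.02, with only 1 and 4 members lower and 4 and 3 higher. The median of all genes moved to 0.85 and 0.68, so the members lay 0.55 and 0.65 log2 units below the median gene. A change of scale moves all genes of a library alike, so that distance is nearly fixed and does not test the scaling.

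The largest difference in females was that of Rpn6. Rpn6 (rpn6, OTAU002122, scaffold 183, 2081445 to 2096564, minus strand), a lid subunit that clamps the regulatory particle to the core, ranged from 118.2 to 135.9 CPM in control female brain, with a median of 121.8. It ranged from 217.0 to 284.2 CPM in thoracic horn (median 228.9), from 210.8 to 239.8 CPM in head horn (median 223.3) and from 265.3 to 747.0 CPM in genitalia (median 630.0) of the same sex. No brain library reached the lowest epithelial one, and the log2 fold change was -1.38 ± 0.14 (SE, edgeR adjusted p = 8.93e-09) in females and -1.12 ± 0.06 in males. Rpn11 fell by 1.02 in females and by 1.09 in males on the log2 scale. PA200 had a log2 fold change of -0.96 in females, which became 0.00 under library totals. Gankyrin (psmd10), an assembly chaperone of the ATPase ring, had the largest change in males, -1.14, with 13.4 to 16.7 CPM in brain against a lowest group median of 31.04 CPM among the epithelia of that sex. The least changed members were β1 in females (-0.32) and Rpn7 in males (-0.33). The 5 ATPases formed a narrow band, from -0.66 to -0.62 in females and from -0.66 to -0.54 in males.

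Genitalia were compared with the 2 horn regions in the same way. In control females 26 members were higher in genitalia and none lower (52.3% of all genes tested passed and 29.4% passed as higher), and the members' median log2 fold change was 0.59 against 0.02 over all genes. In control males 13 members were higher and 2 lower (51.7% of all genes passed, 26.3% as higher and 25.5% as lower), with a median of 0.12. All 5 ATPases and all 10 non-ATPase subunits rose in females, whereas in males 1 of the 5 ATPases rose, 5 of the 10 non-ATPase subunits rose (Rpn6, Rpn7, Rpn5, Rpn10 and Rpn3) and 2 fell. The 4 members that did not pass in females were β2, α7, gankyrin and PA28γ. Under library totals the males had 30 members higher, with the median of all genes at 0.77 and that of the members at 0.88.

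PA200 had the largest difference in both sexes. In control females its 6 genitalia libraries were at 108.3, 537, 658, 740, 748 and 801 CPM, while the 12 horn libraries lay between 84.9 and 125.0 CPM. The lowest of these genitalia libraries, S89, lay within the horn range and the other 5 lay above all 12. The log2 fold change was 2.61 ± 0.22, 6.12-fold (edgeR adjusted p = 5.68e-09). In control males PA200 ranged from 149.7 to 265.8 CPM in genitalia (median 189.4) and from 80.3 to 182.8 CPM in the horns, which overlap, with a log2 fold change of 0.82 ± 0.14. Rpn6 followed with 1.41 in females and 0.45 in males, and Rpn7 (rpn7, OTAU001764, scaffold 2, 1404476 to 1417782, minus strand), a scaffolding subunit of the lid, with 1.17 and 0.37. The 2 members lower in male genitalia were Rpn11 (-0.18) and the large base scaffold Rpn2 (-0.14), and both turned positive, at 0.58 and 0.62, under library totals.

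**Figure D3:**
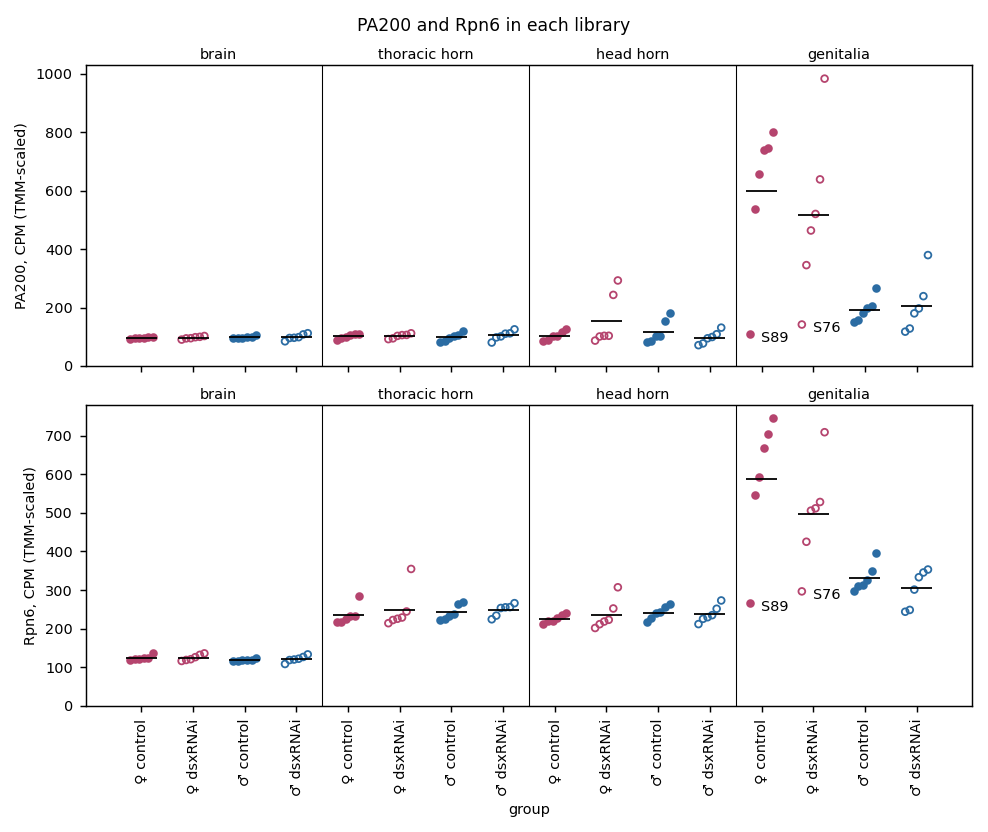
TMM-scaled CPM of PA200 (top) and Rpn6 (bottom) in each of the 96 libraries by group, with a line at the mean of the 6 libraries. In control female genitalia 5 of the 6 libraries stand at 537 CPM or more for PA200, and library S89 at 108 CPM and the *dsx*RNAi library S76 at 142 CPM lie apart from the rest of their groups.

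Between head horn and thoracic horn few members passed, though by TMM most were lower in head horn. In control females 29 of 30 were lower, with a median log2 fold change of -0.20 against 0.00 over all genes. In control males 28 were lower, with a median of -0.13, and 11 had an unadjusted p under 0.05 by edgeR (19.6% of all genes did). Under library totals the medians were -0.03 and -0.09, with those of all genes at 0.18 and 0.02. In control females no member passed (4.63% of all genes did). By edgeR 10 members had an unadjusted p under 0.05 (17.2% of all genes did), and DESeq2, for which no share is given, called 1. The smallest p was that of the lid subunit Rpn12 (psmd8, log2 fold change -0.32 ± 0.11, edgeR adjusted p = 0.104). In control males 1 member passed, as lower (8.75% of all genes passed and 3.93% as lower): β7 ranged from 129.7 to 147.3 CPM in head horn (median 136.1) and from 146.0 to 160.7 CPM in thoracic horn (median 147.5), overlapping at 1 edge, with a log2 fold change of -0.14 ± 0.04 (edgeR adjusted p = 0.0296). That call was lost when any 1 of 6 libraries was left out (S43, S46, S68, S69, S70 or S71), and 3 members passed without S67, as did 3 of the females' without S89.

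The sexes were compared within each tissue, first in the genitalia of control animals. On the TMM scale control females exceeded control males in 27 of 30 members, with a median log2 fold change of 0.26 against 0.02 over all genes, and 4 members passed as higher (13.3% of the members, against 10.3% of all genes tested in either direction and 6.53% as higher). Of the 30, 16 had an unadjusted p under 0.05, against 37.01% of all genes. Under library totals the members' median was -0.08 and 1 member passed, with the median of all genes at -0.32. The direction of the list as a whole thus rests on the scaling. Its distance above the median gene was 0.25 by TMM and 0.24 by library totals. A change of scale moves all genes of a library alike, so that distance is nearly fixed and does not test the scaling.

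The 4 were PA200 and 3 lid subunits. PA200 ranged from 108.3 to 801.4 CPM in females (median 698.9) and from 149.7 to 265.8 CPM in males (median 189.4). S89 lay below every male and the other 5 females lay above every male, giving a log2 fold change of 1.64 ± 0.37 (edgeR adjusted p = 0.0302). Rpn6 ranged from 265.3 to 747.0 CPM in females (median 630.0) and from 297.3 to 396.7 CPM in males (median 319.2), again with S89 below the males (log2 fold change 0.83 ± 0.21, edgeR adjusted p = 0.0378). Rpn3 (rpn3, OTAU014147, scaffold 994, 52054 to 53544, minus strand), which joins the lid's horseshoe of scaffold subunits, was at 240.8 CPM in S89, at 378.6 to 483.8 CPM in the other 5 females and at 224.3 to 290.2 CPM in males (0.58 ± 0.15, edgeR adjusted p = 0.0407). Rpn7 was at 249.8 CPM in S89, at 397.2 to 575.4 CPM in the other 5 and at 256.5 to 315.8 CPM in males (0.62 ± 0.17, edgeR adjusted p = 0.0433). In all 4 genes the S89 value lay within or below the males and the other 5 females lay above every male.

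The other 7 non-ATPase subunits had log2 fold changes of 0.23 (Rpn2) to 0.48 (Rpn5) and the 5 ATPases of 0.21 to 0.41, none of which passed. In the core the 7 β subunits were at 0.13 to 0.26 and the 5 α subunits at -0.07 to 0.28, and none passed. Gankyrin (-0.28) and PA28γ (-0.19) had negative values and did not pass either. S89 was also the second shallowest library of the series. Without S89 17 members passed, with PA200 at 1.86, Rpn6 at 0.97, Rpn7 at 0.73 and Rpn3 at 0.68. Without S94, a control male, PA200 alone passed, and without any 1 of the other 10 libraries no member did, so the count of 4 rests on the full set of 12. DESeq2 called 11 members and edgeR without the low-count filter 1. For DESeq2 and the other settings, here and below, the share of all genes called is not given, so these counts have no background.

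The genitalia libraries also differed in muscle transcripts. All 13 muscle marker genes were measured. Their summed level in control females was 6766 to 12053 CPM in 5 libraries and 3306 CPM in S89, and 2580 to 3976 CPM in control males. Of the 13, 10 were higher in control females than males by edgeR (6.53% of all genes were). Against the horns 13 of 13 were higher in female genitalia (29.4% of all genes were). In male genitalia 4 of 13 were, near the share of all genes there (26.3%). In thoracic horn 3 libraries with sums of 5075 to 6974 CPM (S42, S34 and S29) had 97 to 125 CPM of PA200. Of these, S29 and S42 had 354.7 and 284.2 CPM of Rpn6, and its value in S34 is not given here. Summed over the proteasome genes, S34 had 3963 CPM, against 5406 CPM in S29 and 5633 CPM in S42. The next highest muscle sum of that tissue, 4995 CPM in S35, went with a proteasome sum of 4190 CPM. In head horn 4 libraries with sums of 2337 to 3709 CPM (S67, S68, S54 and S51) had 155 to 293 CPM of PA200. In *dsx*RNAi male genitalia S83 had a sum of 7377 CPM with 239 CPM of PA200 while S82 had 5991 CPM with 379 CPM. The summed level of the 8 epidermal markers in control genitalia was 8582 to 14838 CPM in 5 females, 4234 CPM in S89 and 4474 to 6777 CPM in males. That of the 7 neuronal and glial markers was 322 to 515 CPM in 5 females, 273 CPM in S89 and 244 to 289 CPM in males. The TMM factor was 0.87 to 1.14 in 5 females, 1.37 in S89 and 1.31 to 1.39 in males, and S89 lay among or below the males in each of these. Their part in the proteasome differences was not tested.

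**Figure D4:**
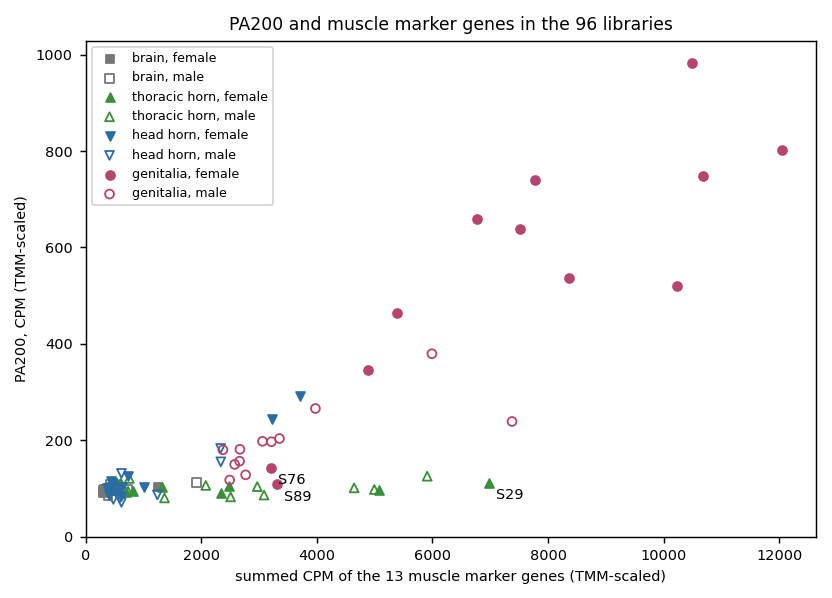
TMM-scaled CPM of PA200 against the summed TMM-scaled CPM of 13 muscle marker genes, 1 point per library, by tissue and sex. Female genitalia libraries with sums of 4880 CPM or more lie at 345 CPM of PA200 or more, S89 and S76 lie near the males, and thoracic horn libraries with sums up to 6974 CPM (S29) stay at 125 CPM or less.

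After *dsx*RNAi the same sex comparison in genitalia gave no member that passed (2.06% of all genes did). By edgeR 16 members again had an unadjusted p under 0.05 (25.9% of all genes did). DESeq2 called 5, and the fit of all 4 genitalia groups called 2. The values were close to those of the controls: PA200 had a log2 fold change of 1.33 ± 0.42 (edgeR adjusted p = 0.0997) and Rpn6, the member with the smallest p, 0.72 ± 0.20 (edgeR adjusted p = 0.0757). PA200 ranged from 141.8 to 983.5 CPM in *dsx*RNAi females (median 492.0) and from 117.4 to 379.4 CPM in *dsx*RNAi males (median 188.4), which overlap. S76, the lowest female for both genes, lay among the males, and without it 11 members passed, while without any other 1 library none did. In genitalia 27 members were higher in females in both treatments, 3 were higher in males in both and none changed sign. The difference between the treatments' sex effects was tested by the interaction: no member passed (0.0191% of all genes did, and 0 had an unadjusted p under 0.05 by edgeR, with 0 calls by DESeq2), and PA200's interaction was 0.32 ± 0.57 on the log2 scale.

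In the head horn of control animals the sign was the opposite. Of the 30 members, 29 were lower in females, with a median log2 fold change of -0.22 against 0.01 over all genes, 17 had an unadjusted p under 0.05 (24.2% of all genes did) and 2 passed (6.53% of all genes did, 3.3% as lower). Rpn1 (psmd2, OTAU008923, scaffold 269, 264314 to 274858, minus strand), the base subunit that docks ubiquitin receptors and shuttle proteins, was between 231.1 and 298.5 CPM in females (median 261.7) and between 340.9 and 392.7 CPM in males (median 375.4). The sexes did not overlap, and the log2 fold change was -0.48 ± 0.08 (edgeR adjusted p = 0.0049). Rpn5 (psmd12, OTAU001750, scaffold 2, 1337998 to 1339353, minus strand), a lid subunit, was between 119.3 and 158.8 CPM in females (median 144.7) and between 162.6 and 191.3 CPM in males (median 172.3), again without overlap (-0.30 ± 0.08, edgeR adjusted p = 0.0347). Rpn11 and the ATPase Rpt2 (pros26.4) were without overlap too and did not pass (-0.34 and -0.28). The share of all genes without overlap was not computed, so the lack of overlap in these members has no background. DESeq2 called 8 members, with no share of all genes given for it. Leaving out 1 library gave 1 to 8 calls: 8 without S65, 7 without S66 and 3 without S68, and Rpn5 was lost without S63, S64, S67, S70, S71 or S72. Under library totals none passed, with Rpn1 at -0.47 (edgeR adjusted p = 0.458). The summed muscle markers were at 439 to 743 CPM in control female head horn and at 416 to 2340 CPM in control male head horn, and 1 of the 11 tested was lower in females. The summed blood cell markers were at 155 to 399 CPM in females and at 355.4 to 525.7 CPM in males, and 2 of the 4 were lower in females. The part of either in the head horn differences was not tested.

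**Figure D5:**
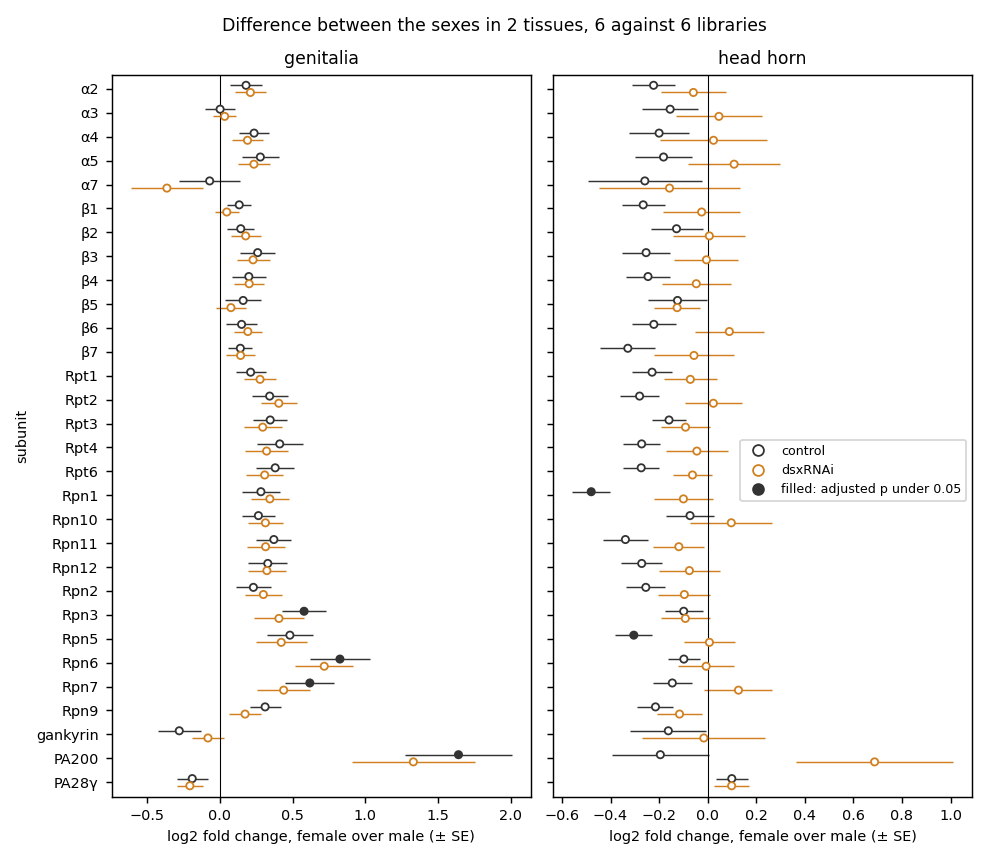
Log2 fold change of females over males for each of the 30 proteasome genes in genitalia (left) and head horn (right), in controls (dark) and after *dsx*RNAi (orange), with SE from edgeR and 6 against 6 libraries. Filled points passed an adjusted p of 0.05: PA200, Rpn6, Rpn3 and Rpn7 in control genitalia and Rpn1 and Rpn5 in control head horn; under library totals the median in genitalia turns to -0.08.

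The opposite signs of the 2 tissues were followed up with a test chosen after seeing the data, the difference between the sex effect in genitalia and that in the horns of control animals. In that test 20 members passed, all with the more positive sex effect in genitalia (12.6% of all genes tested passed and 7.65% in that direction), and the median was 0.45 against 0.00 over all genes. PA200 led with 1.73 ± 0.32 (edgeR adjusted p = 9.37e-04), followed by Rpn6 with 0.91 ± 0.17 and Rpn7 with 0.75 ± 0.15. Under library totals 1 member passed, PA200 at 1.46, and the members' median was 0.15 with that of all genes at -0.24. Leaving out 1 library gave 14 (without S61) to 25 (without S89) calls.

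The other tissues showed no sex difference that passed. In control brain 28 of 30 members were higher in females and 9 had an unadjusted p under 0.05 by edgeR (8.97% of all genes did). None passed (0.16% of all genes did) and DESeq2 called 0. The smallest p was that of β3, at 0.13 ± 0.04 on the log2 scale (edgeR adjusted p = 0.234). In control thoracic horn none passed (0.355% of all genes did), 0 had an unadjusted p under 0.05, DESeq2 called 0, and the smallest p was that of Rpn1 (-0.26 ± 0.12, edgeR adjusted p = 0.481). After *dsx*RNAi 0 members passed in brain (0.14%), thoracic horn (0%) and head horn (0%), with 0 unadjusted p under 0.05 in each by edgeR and 0 calls by DESeq2. The smallest p-values there were those of α5 in brain (0.10 ± 0.06), PA28γ in thoracic horn (0.18 ± 0.15) and PA200 in head horn (0.69 ± 0.32). The last of these rests on 2 *dsx*RNAi female libraries, S51 at 292.6 and S54 at 243 CPM of PA200, whose muscle sums of 3709 and 3227 CPM were also the highest of their group.

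The knockdown itself moved no member past the threshold in any sex and tissue. The background was 0.393% of genes in male head horn, 0.0101% in female genitalia and 0% in the other 6 comparisons. In those 6 no gene passed, *dsx* included. Yet in male thoracic horn the median of *dsx* was 7.01 CPM after *dsx*RNAi and 36.8 CPM in controls. The lack of calls there does not show that the members were unchanged. The largest shift was in male head horn, where 30 of 30 members were lower after *dsx*RNAi. The median log2 fold change was -0.18 against 0.00 over all genes, and 8 members had an unadjusted p under 0.05 by edgeR (15.6% of all genes did). Rpn1 ranged from 222.4 to 329.7 CPM there after *dsx*RNAi, below the control males at 340.9 to 392.7 CPM and overlapping the control females (-0.37 ± 0.10, edgeR adjusted p = 0.148), and DESeq2 called 2 members, Rpn1 among them (adjusted p = 0.0083). In the other 7 comparisons DESeq2 called 0. Members with an unadjusted p under 0.05 by edgeR numbered 3 in male brain (6.13% of all genes), 1 in female brain (3.56%) and 0 in the rest. The members with the smallest p were α2 in male brain (0.12 ± 0.05), gankyrin in female brain (-0.17 ± 0.07), Rpn11 in male thoracic horn (-0.23 ± 0.12), Rpn3 in female thoracic horn (-0.12 ± 0.11), PA200 in female head horn (0.60 ± 0.31), β4 (psmb2) in male genitalia (-0.15 ± 0.07) and β1 in female genitalia (-0.18 ± 0.09). The interaction of sex and knockdown gave 0 members in head horn (1.44% of genes), brain (0%) and thoracic horn (0.0105%), and DESeq2 called 0. By edgeR 4, 1 and 0 members had an unadjusted p under 0.05, against 14.8%, 4.42% and 6.38% of all genes. The smallest p-values were those of Rpn1 in head horn (-0.37 ± 0.14, edgeR adjusted p = 0.191), PA28γ in brain (0.13 ± 0.06) and β4 in thoracic horn (-0.26 ± 0.20), and Rpn9 in genitalia (0.15 ± 0.14).

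Within groups the members varied together. With the group means removed, each member's Pearson r with the mean of the other 29 over the 96 libraries had a median of 0.77, from 0.20 for PA28γ to 0.90 for β4, against a median of 0.02 and a 5th to 95th percentile of -0.39 to 0.38 for 8842 other genes with a mean of at least 5 CPM. The points share library, depth and scaling factor. The cytosolic ribosomal protein genes, each set against the mean of the proteasome genes, had a median of -0.09. They were not set against their own mean, so these values do not tell whether they vary together. By tissue the members' median was 0.64 in brain, 0.79 in thoracic horn, 0.83 in head horn and 0.78 in genitalia. Against the same proteasome mean, the ribosomal protein genes had medians of 0.68 in brain, -0.04 in thoracic horn, 0.46 in head horn and -0.59 in genitalia. PA200 reached 0.75 in genitalia and -0.07 in thoracic horn, and PA28γ -0.29 in genitalia. The 10 genes outside the list whose pattern was most alike were led by OtauTmpM007517, an unnamed gene model (r = 0.88), mov34 (Rpn8, r = 0.87), cg13349 (alias Rpn13, r = 0.81) and grsm (r = 0.81). They were followed by cg33722 (0.75), maf-s (0.73), cg12096 (0.71), sdcbp (0.70), cg13907 (0.66) and rap (0.66).

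A further 6 proteasome genes were found under other names after their values were seen. They are mov34 (Rpn8), tbp-1 (Rpt5), shfm1 (Dss1), pi31, cg13349 (alias Rpn13) and cg30382 (alias Prosalpha1). All 6 were lower in brain than in the epithelia in both sexes by TMM, the scale on which the 30 members also fell. In brain 36.3% of all genes tested were lower in females and 39% in males. In genitalia against horns 5 of the 6 rose in control females and 4 in control males, against 29.4% and 26.3% of all genes. Rpn13, a ubiquitin receptor, was higher in control female than male genitalia (log2 fold change 0.79 ± 0.21, edgeR adjusted p = 0.0417; 6.53% of all genes passed as higher), and the other 5 did not pass.

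Around the proteasome, 25 genes with names of ubiquitin conjugation, shuttling and unfolding factors were measured. Of these, 7 were higher in control female than male genitalia and none lower, against 6.53% of all genes higher, among them the shuttle proteins rad23 (log2 fold change 0.68) and rngo (0.97) and the ligases ube3a (1.48) and ube4b (1.44). In genitalia against horns 16 rose and 2 fell in females and 7 rose and 7 fell in males, against 29.4% of all genes higher in females and 26.3% higher and 25.5% lower in males. In brain against epithelia 3 rose and 19 fell in females and 4 rose and 18 fell in males, against 36.3% and 39% of all genes lower. The share of all genes higher in brain is not given. These brain counts are by TMM, the scale on which the brain calls of the proteasome genes rested, and counts under library totals are not given. The gene named chip was matched by name only, with no alias in the annotation, and the name is also that of a cofactor of LIM-domain transcription factors in flies. It is among the genes that rose in genitalia (0.36 in females and 0.29 in males) and among those that fell in brain (-0.32 and -0.31). Of the 4 regulators of proteasome transcription, cnc (0.83 ± 0.19, edgeR adjusted p = 0.0318) and its partner maf-s (0.65 ± 0.19, edgeR adjusted p = 0.0485) were higher in control female genitalia, and cnc, maf-s and ngly1 rose in genitalia against horns in both sexes. Keap1, which holds cnc in check in flies, passed in neither. Of 19 genes matched by heat shock chaperone names 1 was higher in control female genitalia (dnajb2), and 2 of the 19, hspc300 and hspbap1, are not chaperones of that kind. Of 11 autophagy genes 1 was higher. Of 73 cytosolic ribosomal protein genes tested, 0 were higher and 1 was lower there, with a median of -0.43. By TMM, the scale named above, 69 in females and 72 in males were lower in brain than in the epithelia, where 36.3% and 39% of all genes were.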

How the data were processed

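Single-end reads of 96 stranded mRNA libraries had been trimmed by the authors with Trimmomatic 0.32, mapped to the *O. taurus* v0.5.3 gene models with TopHat2 2.1.0 and counted per gene with HTSeq 0.6.1p1. The deposited counts are whole reads per gene, and the deposited FPKM values are the authors' per-kilobase, per-million scaling of them, made with DESeq2. FPKM served for levels only; mean values are given without a test. Counts were tested with edgeR 4.0.16 (TMM factors, filterByExpr by group, robust quasi-likelihood fit, R 4.3.3), with Benjamini-Hochberg adjustment over all genes tested and a threshold of 0.05; the SE of a log2 fold change was taken as its size over the square root of F. Sex and knockdown comparisons used the groups compared, and tissue comparisons the control groups of 1 sex. Alternatives were DESeq2 1.42.0, DESeq2 size factors in edgeR, no low-count filter, all 4 groups of a tissue in 1 fit and each library left out; library totals in place of TMM factors, and the sex by tissue comparison, were added after seeing the data. Tables were built with Python 3.11.15, and the test was checked on simulated counts. The members and lists were chosen with earlier results of these data known.

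Named members are those called (at most 6, otherwise the 3 largest in each direction) or, with none called, that with the smallest p; the 3 highest and 3 lowest by FPKM; the catalytic, ubiquitin-handling, ATPase and PA28 genes in every tissue; the 10 most alike genes; and *dsx*. Others were named after their values were seen. No pair of libraries held identical counts. The paper calls the 6 libraries of a group biological replicates, and p-values weigh a difference between groups against the spread between such libraries. Genes were matched by name, so a close copy or an unnamed subunit can be missed.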

Additional observations from a re-analysis of the deposited data

Results flagged for a closer look

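For 7 subunits with results above and for the sum over the 30 genes, the highest and lowest library of each group of 6 was set against the others. Of 128 such combinations, 8 had a library apart from the rest, where chance gives about 1 in 20. Of these, 3 were in S29, a *dsx*RNAi female thoracic horn library with a muscle marker sum of 6974 CPM, the highest of that tissue: Rpn6 was at 354.7 CPM (the other 5 reached 244.5), Rpn7 at 327.2 CPM (232.5) and Rpn5 at 261.0 CPM (192.7). Another 2 were in S42, a control female thoracic horn library with a muscle sum of 5075 CPM, the highest of its group: Rpn6 was at 284.2 CPM (the other 5 reached 234.0) and Rpn7 at 281.6 CPM (217.8). The other 3 were in control male brain: PA200 at 106.2 CPM in S22 (the others were at 94.5 to 98.8), Rpn5 at 113.2 CPM in S22 (the others reached 107.1) and Rpn1 at 212.8 CPM in S24 (the others began at 228.8). Whether muscle RNA had a part in the thoracic values was not tested.

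The sex effect differed between genitalia and horns in control animals for 20 members, by the interaction in edgeR. Of all genes tested, 12.6% passed and 7.65% passed in that direction. These are the same calls as given above, from the test chosen after seeing the data. The log2 differences were 1.73 for PA200. In the lid they were 0.91 for Rpn6, 0.75 for Rpn7, 0.68 for Rpn5, 0.65 for Rpn11, 0.64 for Rpn3, 0.54 for Rpn12 and 0.49 for Rpn9. In the base they were 0.66 for Rpn1, 0.43 for Rpn2, 0.64 for Rpt4, 0.57 for Rpt6, 0.56 for Rpt2, 0.46 for Rpt3 and 0.37 for Rpt1. In the core they were 0.45 for β3, 0.44 for β4, 0.44 for β7, 0.39 for α2 and 0.34 for β1. Under library totals PA200 alone passed.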

How the results depend on the processing

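Under every planned setting 20 of the 26 counts of members called stayed within 1.5 times their value. The shares of all genes called under the alternative settings are not given, so the counts below have no background. DESeq2 called 11 members between the sexes in control genitalia, 5 in *dsx*RNAi genitalia, 8 in control head horn, 2 for the knockdown in male head horn, and 1 and 3 between the horns in females and males. Without the low-count filter the counts were 1 for control genitalia, 1 for control head horn, 13 for the sex by tissue comparison and 0 for the horns in males. The fit of all 4 groups called 2 in *dsx*RNAi genitalia. Under library totals they were 1 in control genitalia, 0 in control head horn, 1 for sex by tissue, 5 and 7 for brain against the epithelia in females and males, 0 for the horns in males and 30 for genitalia against horns in males. PA200 in brain against the epithelia in females reversed to 0.0046, and Rpn11 and Rpn2 in genitalia against horns in males reversed to 0.58 and 0.62. Library totals shifted the median of all genes, as given beside each result. Where a call was lost otherwise, the cause was not tested.

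With 1 library left out, the counts ranged from 0 to 17 in control genitalia, 0 to 11 in *dsx*RNAi genitalia, 1 to 8 in control head horn, 14 to 25 for sex by tissue, 0 to 3 between the horns in each sex, 29 to 30 and 30 for brain against the epithelia in females and males, and 25 to 26 and 11 to 17 for genitalia against horns. No paired analysis was possible because each library carries a number of its own and the groups compared share none. α7, with 8 reads in its lowest library, is limited by depth.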
